A study of Homo sapiens with 6 samples.

Results

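NF-kB is a family of dimeric transcription factors that is held in check by inhibitor proteins and switched on by receptors for inflammatory ligands, Toll-like receptors and DNA damage. The transcripts described here are those of the 5 subunits RELA, RELB, REL, NFKB1 and NFKB2, the inhibitors NFKBIA and NFKBIE, the ubiquitin-editing enzyme TNFAIP3 (A20) and the ubiquitin ligases BIRC2 (cIAP1) and BIRC3 (cIAP2). They were chosen by name, and each of the 10 symbols matched 1 Ensembl identifier among the 63677 genes of the count table. RNA was sequenced from UWB1.289, a line derived from a human ovarian carcinoma that lacks functional BRCA1 and has the genotype label WT, after 24 h with the PARP inhibitor Olaparib (3 samples) or the vehicle DMSO (3 samples). The sample labels give 4 µM Olaparib, whereas the design text of the series gives 10 µM. All samples come from this 1 cell line, so the values describe a single model.

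In the canonical arm, inflammatory signals make the IKK complex mark NFKBIA (IkB-alpha) and NFKBIE (IkB-epsilon) for degradation, which frees dimers of RELA or REL with p50, the product of NFKB1. In the non-canonical arm, the kinase NIK accumulates once the TRAF-cIAP complex releases it, and the NFKB2 precursor is processed to p52, the partner of RELB. RELA, REL, NFKB1, NFKBIA, NFKBIE and TNFAIP3 were taken as the 6 canonical members and RELB, NFKB2, BIRC2 and BIRC3 as the 4 non-canonical ones. This division is by main role, since BIRC2 and BIRC3 also act at the TNF receptor in the canonical arm. Several of these genes are known targets of NF-kB itself, so that the pathway feeds back on its own inhibitors.

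Total counts per library lay between 35360458 and 39640775, and mitochondrial genes took 5.68% to 6.11% of them. All 10 members had more than 10 counts over the 6 libraries, the filter for testing, and the lowest mean was 173 counts, that of REL. Of 8 epithelial and Mullerian markers, 7 had a mean above 10 and WT1 was at 8 counts in total. Their summed level was 469067 to 492568 normalized counts with Olaparib and 463102 to 478456 after DMSO, and PAX8 alone was called higher. Of 5 leukocyte markers, PTPRC and CD14 were above a mean of 10 and CD3E was at 6 counts in total, with sums of 125 to 148 after Olaparib and 103 to 131 after DMSO. Of 4 fibroblast markers, PDGFRB, DCN and LUM had 5, 4 and 0 counts in total, and the sums were 235 to 339 and 279 to 313. Of 3 endothelial markers PECAM1 was at 0, while CDH5 had 1525 ± 28.2 normalized counts with Olaparib and 1606 ± 63.6 after DMSO (SD, n = 3 each). Their sums were 1563 to 1613 after Olaparib and 1608 to 1723 after DMSO, and VWF alone was called higher, from 41.8 ± 1.96 to 67.3 ± 3.17. Whether reads of PECAM1 and LUM were counted under another identifier was not tested. The part of all these markers in the members' values was not tested either. In bulk RNA, fewer cells of a kind and less RNA per cell cannot be told apart.

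The promoters are shown because TNFAIP3 and BIRC3, which were higher after Olaparib, and NFKB1, NFKBIA and REL, which did not pass the test, hold the same kind of motif. So does NFKB2, which did not pass either. RefSeq promoter windows on GRCh38.p14, from 250 bases before to 50 bases after each transcription start, were present for 8 of the 10 members, with more than 1 start for RELA, NFKB1, NFKB2 and BIRC2. RELB and NFKBIE had no entry. The kB consensus, searched on both strands, matched in 6 of the 8 members, where 13.3% of all 27305 genes with a window had a match at any start. Counted by window, it matched in 7 of the members' 13 and in 11.3% of all 35116. Several members are known NF-kB targets, so a high share follows from their choice and is no result of these data. The matches, apart from those of NFKB2, are in capitals below, 5′ to 3′ on the strand of the gene. Each stretch lies before the RefSeq start, that of REL inside an exon of another annotated transcript.
TNFAIP3, chr6:137867172-137867213, plus strand: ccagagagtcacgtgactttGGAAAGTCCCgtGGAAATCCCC
BIRC3, chr11:102317265-102317378, plus strand: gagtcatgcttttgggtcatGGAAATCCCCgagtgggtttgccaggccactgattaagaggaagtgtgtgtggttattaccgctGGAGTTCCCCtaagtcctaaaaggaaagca
NFKBIA, chr14:35404801-35404850, minus strand: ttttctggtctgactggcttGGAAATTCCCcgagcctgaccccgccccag
NFKB1, chr4:102501290-102501329, plus strand: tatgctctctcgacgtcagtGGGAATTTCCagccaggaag
REL, chr2:60881518-60881547, plus strand: gtcagccgcGGGAAATTCCCctcccgccag

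TNFAIP3 held 2 matches, whose first bases lay 67 and 55 bases before the start, and BIRC3 held 2, at 199 and 135 bases. NFKBIA had 1 match at 81 bases and NFKB1 1 at 49 bases, the latter at the first of its 2 starts. In REL, 2 matches on opposite strands overlapped, at 47 and 46 bases. NFKB2 had none at its first start, 3 at the second and 2 at the third. RELA and BIRC2 had none at either of their starts, which says only that these letters are not in the windows. A looser form, which allows any base at the 5 middle positions and so takes in every match of the kB consensus, was found in 8 of 8 members and in 61.7% of all genes with a window. An interferon-response core was found in 1 of the 8 members, RELA (first start, 237 bases before it), and in 4.38% of all genes with a window.

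Of the 10 members, 3 rose after Olaparib and 0 fell. They were TNFAIP3 (15.7% higher), RELB (16.1%) and BIRC3 (16.9%). A gene was called when the p from the quasi-likelihood test of edgeR, adjusted by Benjamini-Hochberg over all 21729 genes tested, was under 0.05, and every adjusted p below is of this kind unless another tool is named. Over all genes tested, 3.36% were called, 2.15% higher and 1.21% lower, and among the 11997 genes whose mean count was 100 or more the shares were 3.67% and 1.89%. None of the 3 passed the further condition of a fold past 1.2, which 0.723% of all genes met as higher. The members were chosen with earlier results of these data known, so their count carries no test of its own. The Olaparib libraries were all above the DMSO libraries for 5 members and all below for 1, where 10.0% and 9.29% of all genes tested were so arranged.

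**Figure D1:**
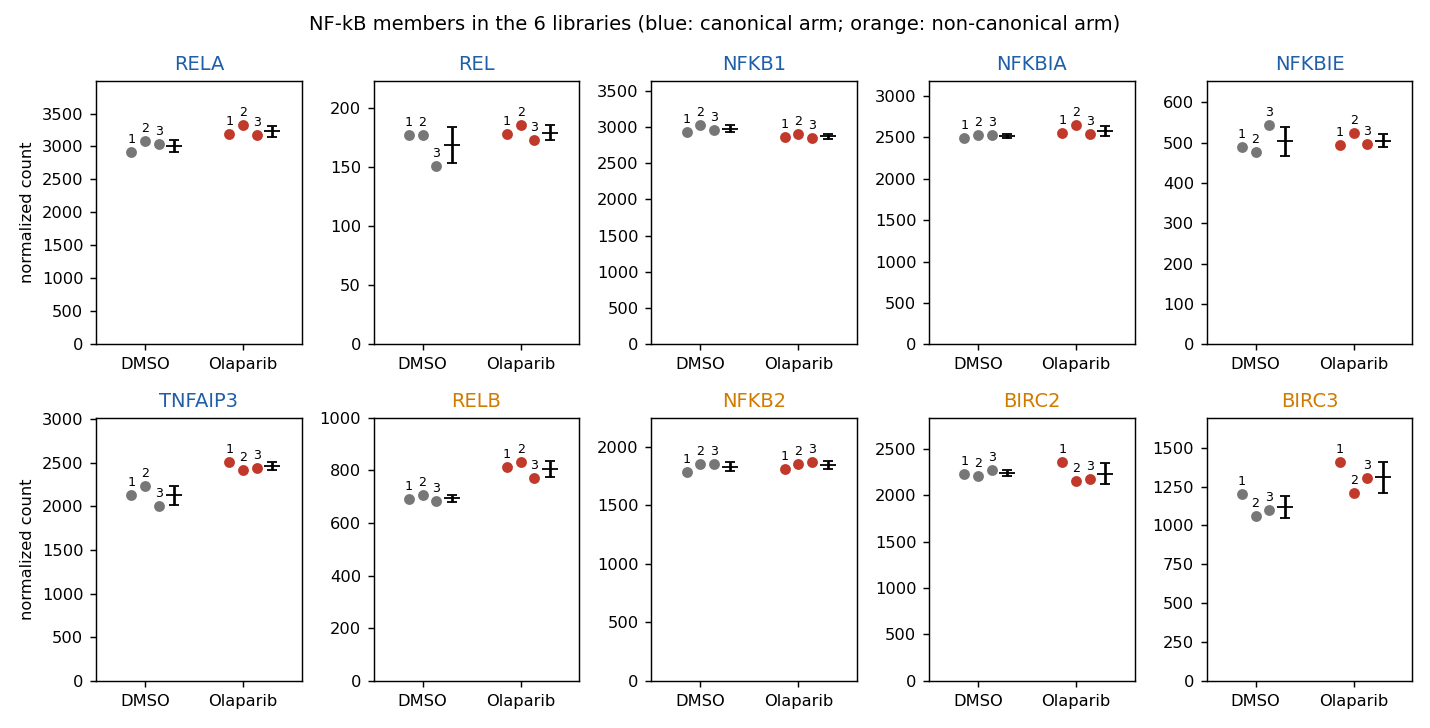
Normalized counts (vertical axes, each from 0) of the 10 members in the 3 DMSO and 3 Olaparib libraries. Points are libraries with their replicate numbers, and bars give the mean and SD. TNFAIP3, RELB, BIRC3, RELA and NFKBIA had all 3 Olaparib libraries above all 3 DMSO libraries, whereas NFKB1 had them below. The margin was narrow for BIRC3 and NFKBIA.

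Among the inhibitors and feedback genes, TNFAIP3 (ENSG00000118503, chromosome 6, 137867214 to 137883314 on GRCh38) was called with the smallest adjusted p. It removes and edits ubiquitin chains at the receptor complexes and so shuts canonical signaling down. Its normalized counts, read counts scaled to a common library size, were 2515, 2424 and 2446 after Olaparib (replicates 1 to 3) and 2136, 2235 and 2011 after DMSO. The lowest Olaparib library was well above the highest DMSO library, and the DMSO libraries were the more spread. The mean rose from 2127 ± 112 to 2461 ± 47.6 (SD, n = 3 each), which is 0.21 on the log2 scale (SE 0.042, adjusted p = 0.00196). The call was lost only without DMSO replicate 3, the lowest library (log2 fold change 0.17, adjusted p = 0.0537). The TNFAIP3 exons overlap those of the antisense gene WAKMAR2 over 1.5% of their bases, and the strand setting of the counting is not given in the sources used here. Its promoter is the one above in which 2 matches of the kB consensus stand side by side.

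NFKBIA (ENSG00000100906, chromosome 14, 35401079 to 35404749), an inhibitor that is itself an NF-kB target, had 2557, 2652 and 2536 normalized counts with Olaparib and 2492, 2533 and 2524 after DMSO. The groups narrowly did not overlap, and the log2 fold change was 0.037 (95% interval -0.042 to 0.12, adjusted p = 0.733). NFKBIE (ENSG00000146232, chromosome 6, 44258166 to 44265788), an inhibitor of RELA and REL dimers, had 495, 525 and 496 after Olaparib and 490, 476 and 544 after DMSO. These overlapped fully, with a log2 fold change of 0.0033 (95% interval -0.12 to 0.12, adjusted p = 0.989) whose sign turned with upper quartile scaling, a stricter filter and some libraries left out.

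RELB (ENSG00000104856, chromosome 19, 45001461 to 45038192), the subunit of the non-canonical arm that carries the activation domain, was the only one of the 5 subunits to pass the test. It had 811, 833 and 772 normalized counts with Olaparib and 690, 707 and 684 after DMSO. All 3 Olaparib libraries were above every DMSO library. The mean went from 693 ± 11.7 to 806 ± 31.1 (SD, n = 3 each), which is 0.22 on the log2 scale (SE 0.049, adjusted p = 0.00735). The adjusted p was 0.0580 without DMSO replicate 1 and 0.0530 without DMSO replicate 3, with log2 fold changes of 0.21 and 0.20.

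RELA (ENSG00000173039, chromosome 11, 65653599 to 65663090), the main activating subunit of the canonical arm, had 3192, 3328 and 3171 normalized counts with Olaparib and 2912, 3078 and 3044 after DMSO. The Olaparib libraries lay above the DMSO libraries, but the log2 fold change of 0.10 did not pass (95% interval 0.023 to 0.18, unadjusted p = 0.0124, adjusted p = 0.165). NFKB1 (ENSG00000109320, chromosome 4, 102501330 to 102617302), the p105 precursor of p50, had 2861, 2906 and 2840 after Olaparib and 2933, 3026 and 2956 after DMSO. Here the Olaparib libraries lay below, with a log2 fold change of -0.051 (95% interval -0.13 to 0.025, adjusted p = 0.585).

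NFKB2 (ENSG00000077150, chromosome 10, 102394110 to 102402524), the p100 precursor of p52 and itself an inhibitor of RELB, had 1805, 1852 and 1872 normalized counts with Olaparib and 1785, 1851 and 1850 after DMSO. The groups overlapped, with a log2 fold change of 0.011 (95% interval -0.072 to 0.094, adjusted p = 0.947). REL (ENSG00000162924, chromosome 2, 60881491 to 60931612), the subunit best known from lymphocytes, had 178, 186 and 173 after Olaparib and 177, 177 and 151 after DMSO. Its log2 fold change of 0.090 (95% interval -0.11 to 0.29, adjusted p = 0.742) had the widest interval of the 10 members, and it was 0.013 without DMSO replicate 3, the lowest library. REL counts are uncertain, because 33.3% of its exonic bases lie in ENSG00000267520 on the same strand, a gene with 0 counts in all 6 libraries.

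BIRC3 and BIRC2 are paralogs that lie head to tail on the plus strand of chromosome 11, 7807 bases apart. Both encode ligases that keep NIK low in resting cells and attach ubiquitin to RIPK1 at the TNF receptor. BIRC3 (ENSG00000023445, 102317484 to 102339403) had 1410, 1209 and 1306 normalized counts with Olaparib and 1199, 1058 and 1102 after DMSO. The groups did not overlap, although Olaparib replicate 2 and DMSO replicate 1 were close. Its mean rose from 1120 ± 71.8 to 1308 ± 101 (SD, n = 3 each), which is 0.23 on the log2 scale (SE 0.052, adjusted p = 0.00854). The adjusted p was 0.0539 without Olaparib replicate 1, 0.0967 without DMSO replicate 2 and 0.0529 without DMSO replicate 3, with log2 fold changes of 0.17, 0.19 and 0.21.

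BIRC2 (ENSG00000110330, 102347211 to 102378670) had 2361, 2157 and 2171 normalized counts with Olaparib and 2228, 2208 and 2271 after DMSO. Olaparib replicate 1 was the highest library for BIRC2 as it was for BIRC3, and the other Olaparib libraries were the lowest 2 of the 6. The log2 fold change was -0.0040 (95% interval -0.089 to 0.081, adjusted p = 0.985). The BIRC3 promoter above holds 2 kB matches, while the BIRC2 windows held none. NFKB2, NFKBIA, NFKB1 and REL also hold matches and were not called. A link between matches and change was not tested.

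**Figure D2:**
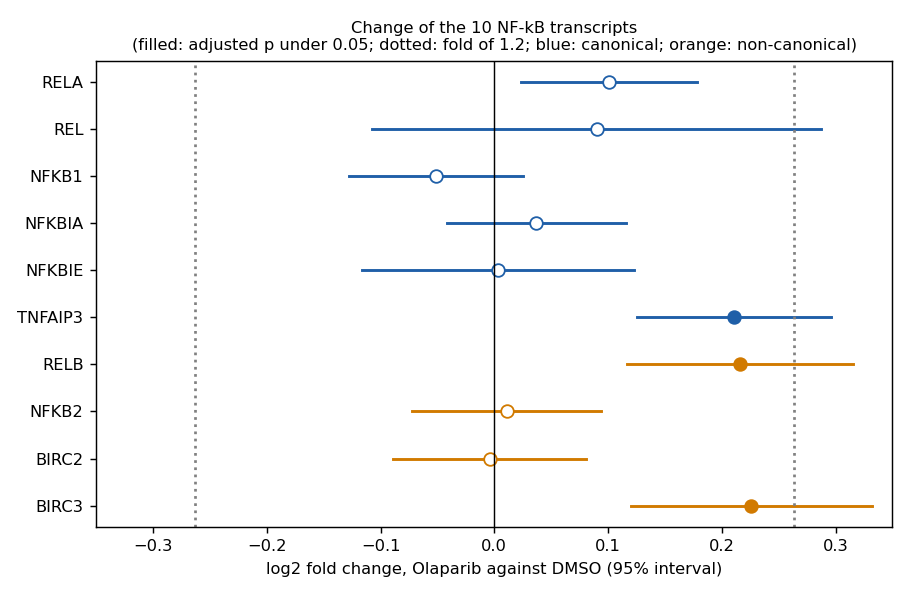
Log2 fold change of each member, Olaparib against DMSO, with its 95% interval from edgeR's quasi-likelihood fit on all 6 libraries (horizontal axis). Filled points are the 3 members with an adjusted p under 0.05, and no point passes the dotted lines at a fold of 1.2.

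**Figure D3:**
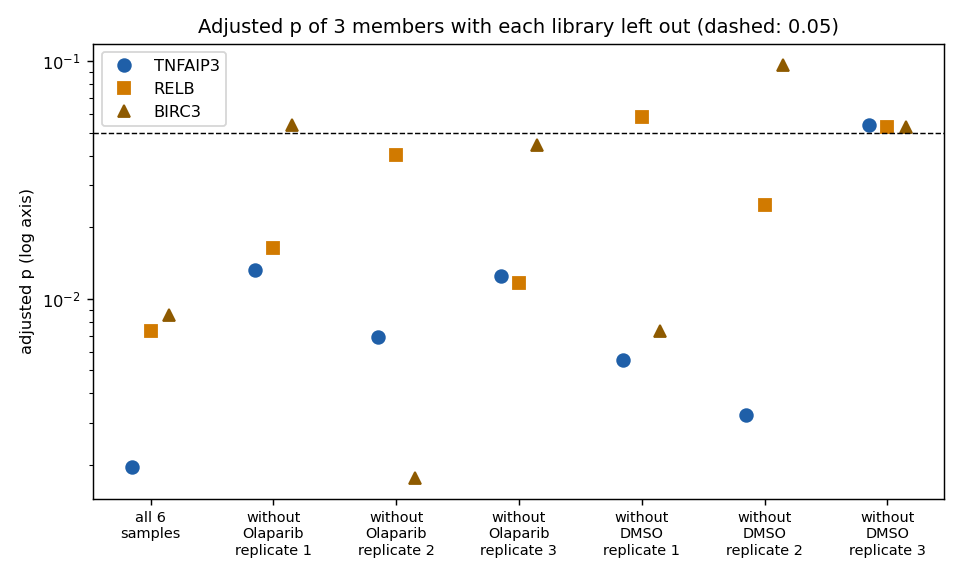
Adjusted p (vertical log axis) of TNFAIP3, RELB and BIRC3 with all 6 libraries and with each library left out in turn (horizontal axis). All 3 members lay just above the dashed line at 0.05 without DMSO replicate 3, between 0.0529 and 0.0537.

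The arms were compared by counts and by ratios within a library. Of the 6 canonical members 1 rose (TNFAIP3), and of the 4 non-canonical members 2 rose (RELB and BIRC3), with 0 falling in either arm. The median log2 fold change was 0.063 for the canonical and 0.11 for the non-canonical members, against -0.0042 over all genes tested and 0.0025 over those with a mean count of at least 100. With any 1 library left out, the canonical median lay between 0.041 and 0.080 and the non-canonical one between 0.099 and 0.12. No member lay near the non-canonical median, with RELB at 0.22 and BIRC3 at 0.23, NFKB2 at 0.011 and BIRC2 at -0.0040. With 6 and 4 members, these medians carry no test. The precursors NFKB1 and NFKB2, from which p50 and p52 are cut, did not pass in either arm.

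A ratio of 2 transcripts in 1 library does not depend on the scaling of libraries. The ratio of RELB to RELA in normalized counts was 0.254, 0.250 and 0.243 after Olaparib and 0.237, 0.230 and 0.225 after DMSO. The groups did not overlap, and the difference in log2 ratio was 0.11. For NFKB2 to NFKB1, the ratio was 0.631, 0.637 and 0.659 after Olaparib and 0.608, 0.612 and 0.626 after DMSO, a difference of 0.062 in log2 ratio with Olaparib replicate 1 just above DMSO replicate 3. For BIRC3 to BIRC2 it was 0.597, 0.560 and 0.602 against 0.538, 0.479 and 0.485, the widest difference of the 3 pairs at 0.23 in log2 ratio (within-group SD 0.057 and 0.092). All 3 ratios of non-canonical to canonical partner, or of BIRC3 to its paralog, were higher in every Olaparib library than in every DMSO library. The exact permutation test over the 6 samples, two-sided, gave p = 0.1 for each (0.1 after Benjamini-Hochberg adjustment over the 3), which is the smallest that 3 samples against 3 allow. RELB and BIRC3, each the upper term of a ratio, had already been called. In the NFKB2 to NFKB1 ratio, the log2 fold change was 0.011 for NFKB2 and -0.051 for NFKB1. The share of all gene pairs so arranged was not computed.

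Levels between genes were compared as RPKM, reads scaled to the length of the canonical transcript and to the size of the library. After DMSO, NFKBIA was the most abundant of the 10 with 43.1 ± 0.363 (SD, n = 3), followed by RELA with 32.0 ± 0.937 and NFKB1 with 19.6 ± 0.320. NFKB2 with 16.2 ± 0.338 and BIRC2 with 15.9 ± 0.229 overlapped and could not be ordered. TNFAIP3 had 12.2 ± 0.643, RELB 8.21 ± 0.139, NFKBIE 5.74 ± 0.407 and BIRC3 4.35 ± 0.279, all without overlap between neighbours. REL was lowest by far, with 0.405 ± 0.0366, though its counts are uncertain because of the same-strand gene above. The order was the same after Olaparib, where TNFAIP3 reached 14.1 ± 0.273, RELB 9.54 ± 0.369 and BIRC3 5.09 ± 0.392. With the union of all annotated exons as the length, NFKB1 moved from the third place to the eighth, so its place rests on the transcript chosen, while NFKBIA, RELA, BIRC3 and REL kept theirs.

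**Figure D4:**
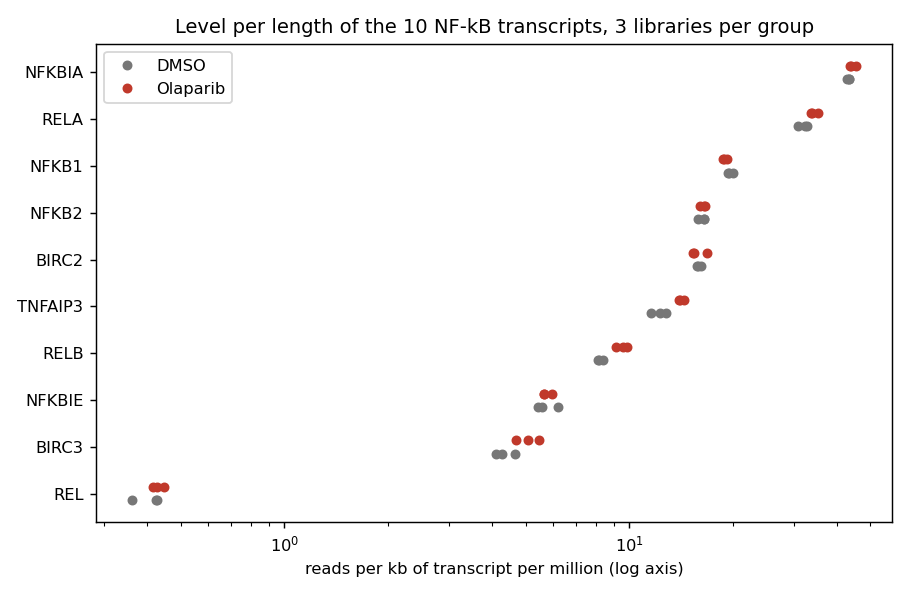
Level per length of the 10 members in RPKM over the canonical transcript (horizontal log axis), with 1 point per library. NFKBIA and RELA stood highest and REL lowest in both groups, and the rises of TNFAIP3, RELB and BIRC3 left the order as it was.

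On the same scale, RELA made up 41.9% ± 0.396 of the summed level of the 5 subunits after DMSO (SD, n = 3) and 43.1% ± 0.327 after Olaparib. NFKB1 made up 25.6% ± 0.243 and 23.8% ± 0.181, NFKB2 21.2% ± 0.157 and 20.6% ± 0.501, and REL 0.530% ± 0.0507 and 0.541% ± 0.0103. RELB went from 10.7% ± 0.187 to 12.0% ± 0.309. RELB and NFKB2 together held 32.1%, 31.8% and 32.0% in the DMSO libraries and 32.5%, 32.4% and 32.8% in the Olaparib libraries, so the share of the non-canonical subunits was higher by less than 1 percentage point. The shares depend on the length used. With the union of annotated exons, NFKB1 made up 14.5% ± 0.135 after DMSO and 13.2% ± 0.113 after Olaparib, below RELB with 17.7% ± 0.305 and 19.4% ± 0.476. On that length RELB and NFKB2 together held 42.7% ± 0.231 after DMSO and 43.3% ± 0.178 after Olaparib. These shares are relative to each other and were not tested, and that of REL carries the uncertainty of its counts.

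The other genes of the pathway were grouped by role into 7 lists with 73 genes, of which 67 were tested. Of these 67, 2 rose and 2 fell at an adjusted p under 0.05, beside 2.15% and 1.21% over all genes, and their median log2 fold change was 0.031. No call was made among the 5 other IkB family proteins, the 6 other ubiquitin editors and brakes, the 9 ligands tested or the 15 kinases and adaptors tested. Over the 67 genes, 19 had an unadjusted p under 0.05, beside 14.8% of all genes tested.

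Among the kinases and adaptors, IKBKB, the catalytic IKK subunit of the canonical arm, had a mean of 1428 normalized counts with Olaparib and 1518 after DMSO (log2 fold change -0.088, adjusted p = 0.358). CHUK, the IKK subunit that acts on NFKB2, had 1045 and 1088 (-0.059, adjusted p = 0.602). MAP3K14, which encodes NIK, had 389 and 357 (0.12, adjusted p = 0.381), with 15.1% of its exonic bases shared with an antisense gene. TRAF3 had 3570 and 3388 (0.075, adjusted p = 0.348) and TRAF2 2247 and 2247 (-0.00035, adjusted p = 0.998), with a sign for TRAF2 that turned when libraries were left out. These 2 adaptors tie NIK to BIRC2 and BIRC3 for degradation. IKBKG, the regulatory IKK subunit, was listed at 0 counts in every library under ENSG00000269335. GENCODE also lists a copy of it, IKBKGP1. Whether its reads were assigned to the copy or counted under another identifier was not tested, so its level is not known from this table.

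Of the 10 receptors, TLR4 rose and TNFRSF12A fell. TLR4, the receptor for lipopolysaccharide, had 1676, 1545 and 1564 normalized counts with Olaparib and 1369, 1456 and 1331 after DMSO. The groups did not overlap, and the log2 fold change was 0.20 (SE 0.046, adjusted p = 0.00682, and 0.0699 without DMSO replicate 3). TNFRSF12A, the TWEAK receptor Fn14, which engages both arms, had 5624, 6209 and 6061 after Olaparib and 6514, 6549 and 6888 after DMSO. Every Olaparib library was lower, and the log2 fold change was -0.16 (SE 0.035, adjusted p = 0.00580, and 0.0823 without DMSO replicate 3).

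Of the 22 target genes tested outside the members, IL6 rose and CXCL8 fell. IL6, an inflammatory cytokine, had 135, 108 and 111 normalized counts with Olaparib and 76.3, 88.2 and 88.1 after DMSO, a difference of 0.48 on the log2 scale (SE 0.13, adjusted p = 0.0268). It was the only 1 of the 4 called genes outside the members past a fold of 1.2, and its call was lost with DESeq2 (adjusted p = 0.107). The IL6 call was also lost without Olaparib replicate 1 (adjusted p = 0.144) and without any 1 of the DMSO libraries (0.109, 0.0660 and 0.0656 without replicates 1, 2 and 3). The IL6 exons overlap those of STEAP1B and IL6-AS1, on the other strand, over 9.9% of their bases. CXCL8, the neutrophil chemokine interleukin 8, had 9379, 8733 and 9144 after Olaparib and 10013, 9678 and 10111 after DMSO, all lower after Olaparib. Its log2 fold change was -0.13 (SE 0.031, adjusted p = 0.0111, 0.0983 without Olaparib replicate 2 and 0.0888 without DMSO replicate 3). VCAM1, BCL2A1 and the ligand CD40LG had at most 4 counts in total and were not tested, and SOD2 had no matched identifier. CCL5 was listed at 0 counts in every library and was not tested. Whether its reads were counted under another identifier was not tested either.

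**Figure D5:**
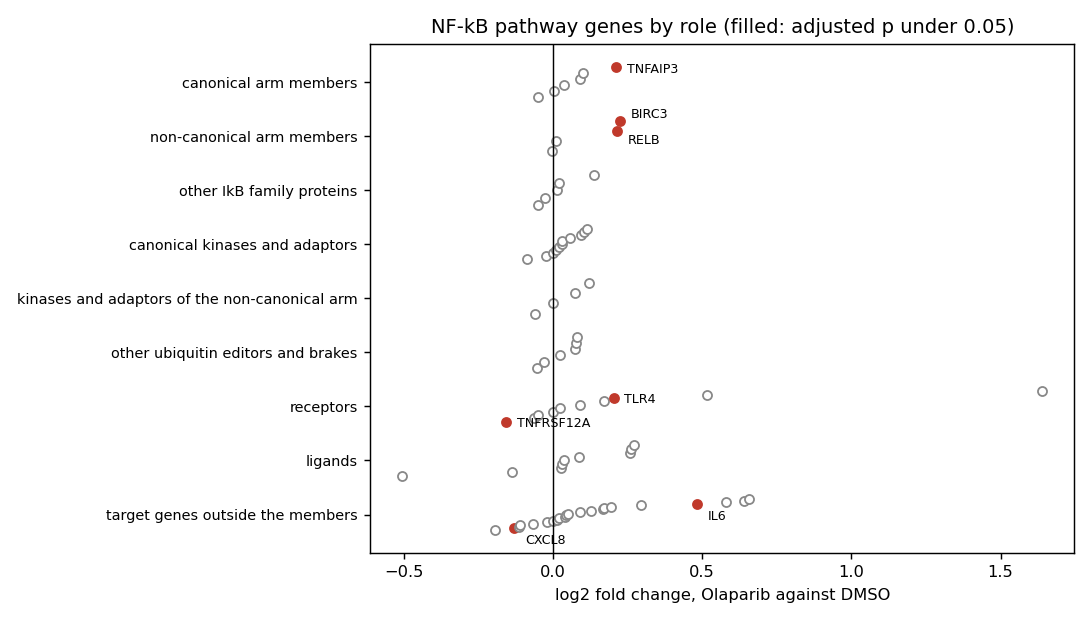
Log2 fold change, Olaparib against DMSO (horizontal axis), of every tested member and pathway gene, 1 point each, by role. The 7 genes with an adjusted p under 0.05 are filled and named, 3 of them members.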

How the data were processed

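Adapters were trimmed with Trimmomatic, STAR aligned the reads to GRCh38, Picard marked duplicates, and featureCounts gave the raw count of reads per gene that the authors deposited. Libraries were stranded and poly(A)-enriched. The strand setting of the counting and any removal of duplicates are not given in the sources used here. Symbols, coordinates and exon lengths came from GENCODE release 44 on GRCh38, which held 81.9% of the listed identifiers, and promoters from RefSeq on GRCh38.p14. The members, the lists and the rule for named genes were chosen with earlier results of these data known. The rule names all 10 members, each other pathway gene that was called, 6 kinases and adaptors of the pathway and every gene that was not tested.

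Genes with more than 10 counts over the 6 samples were normalized with TMM (factors 0.995 to 1.01) and tested by quasi-likelihood in edgeR, with no replicate block and with Benjamini-Hochberg adjustment over 21729 genes. The common biological coefficient of variation was 0.0353. Normalized counts refer to the geometric mean library. In simulated counts for this comparison over 21273 genes, the test recovered 94 of 100 genes changed by 0.5 on the log2 scale and 100 of 100 changed by 1, and called 14 unchanged genes. Genes with low mean counts were not among the changed ones. Changes as small as those of the members were not simulated. Replicate pairs differed by more than sampling noise (chi-square over degrees of freedom 1.81 to 4.11 over 15525 genes). Pairs with DMSO replicate 1 had 4.02 and 4.11, against 1.81 for DMSO replicates 2 and 3. Pairs with Olaparib replicate 1 had 3.8 and 3.35, against 2.28 for Olaparib replicates 2 and 3. Samples are labelled as separate replicates, and p values measure the spread between them. Alternatives were DESeq2, limma voom, robust dispersion, other scalings and filters, a fold threshold, a replicate block and leaving out each sample. The tools were R 4.3.3, edgeR 4.0.16, DESeq2 1.42.0 and limma 3.58.1.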

Additional observations from a re-analysis of the deposited data

How the results depend on the processing

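In the tests with other tools, scalings, filters or a replicate block on all 6 samples, TNFAIP3, RELB and BIRC3 were called in 8 of 8. With a fold past 1.2 as a further condition, 0 members were higher, and of the other pathway genes 1 was higher and 0 lower. With each sample left out, between 0 and 3 members were called higher, 0 of them without DMSO replicate 3. Over all genes in these fits, 270 to 567 were called higher and 127 to 303 lower. Without DMSO replicate 3 they were 270 and 131, against 467 and 263 with all 6 samples. The other pathway genes called higher were 0 to 2 and those called lower 0 to 2, with 0 in both without DMSO replicate 3 and 1 higher without DMSO replicate 1 or 2. With DESeq2, 1 other pathway gene was higher, and with no filter, with at least 1 CPM in 3 samples or with the replicate block 3 were, CXCL10 being the further one (named after its values were seen). Signs turned for genes near 0. The log2 fold change of NFKBIE was -0.0056 with upper quartile scaling and -0.00086 with at least 1 CPM in 3 samples, and TRAF2 was at 0.00072 without a filter. With each sample left out, REL kept its sign but ranged from 0.013 to 0.13, and NFKBIE ranged from -0.036 to 0.062, NFKB2 from -0.0043 to 0.028, BIRC2 from -0.045 to 0.020 and TRAF2 from -0.030 to 0.050. The cause was not tested. The deviations of same-numbered samples correlated at -0.20, 0.26 and -0.32. Those of differently numbered samples ranged from -0.38 to 0.48, so these values do not settle whether replicate numbers pair the samples. With the replicate block, 3 members were higher and 0 lower, with 805 genes higher and 517 lower over all genes, against 467 and 263 without it. At this depth and with 3 samples a group, no member with a log2 fold change of 0.10 or less was called. The subunit shares with the union of exons as length were added after the data were seen. Intervals cover the spread between these samples only.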
